A study of Homo sapiens with 6 samples.

Results

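The genes of lipid droplets and triglyceride turnover were examined in SW872, an established human liposarcoma cell line, after treatment with Apatinib. They were chosen by symbol, with no measured value in the rule, though with earlier results of these data known. They comprised PLIN2, PLIN3, DGAT1, DGAT2, PNPLA2, ABHD5, G0S2, HILPDA, LIPE and MGLL. Each symbol matched 1 row, so 10 of the 57773 genes in the table were examined, and all 10 passed the filter on low counts that left 16290 genes for testing. The Apatinib group held 3 replicates of SW872 cells exposed to 18 μM Apatinib, a tyrosine kinase inhibitor of VEGFR-2, for 24 h. The control group held 3 replicates of untreated SW872 cells. The paper's methods call the replicates biological and name no vehicle for the controls. Both groups were grown in RPMI-1640 with fetal bovine serum, and they represent a single cell line.

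Cells store fatty acids as triglyceride in lipid droplets, which bud from the endoplasmic reticulum and are coated by perilipins. The DGAT enzymes add the last fatty acid to diacylglycerol, and lipolysis removes the fatty acids again in a chain of steps that begins with the lipase ATGL, continues with hormone-sensitive lipase and ends with monoacylglycerol lipase. ATGL is switched on by a coactivator and held back by small inhibitor proteins. Adipocytes are known for the highest activity of this pathway, while PLIN2 and PLIN3 coat the droplets of most other cells.

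The total count per sample was between 17043314 and 22067558. Control 1 and control 2 were the pair most alike, with a mean chi-square of 2.27 per gene, where sampling noise alone gives about 1, against 18.2 to 44.5 for the other pairs within a group. Both Apatinib 1 and Apatinib 3 were closer to control 3 (40.5 and 26.5) than to Apatinib 2 (44.5 and 34.3). The sources used here do not say whether control 1 and control 2 came from separate cultures. If they did not, n = 3, the SDs of the control group and the intervals count 1 culture more than once. They were kept as separate replicates, and how the calls changed with both summed as 1 sample is also given. Of 8 markers of mature adipocytes, 5 had 3 or fewer counts in every sample, and ADIPOQ and FABP4 were at 0 counts in all. The summed level of the 8 was 1.90 to 2.57 FPKM in the control and 2.91 to 4.94 FPKM in the Apatinib group, mostly from LPL. The 7 mesenchymal markers, led by VIM, were all detected, with a summed level of 1334 to 1455 FPKM (fragments scaled to transcript length and depth, the scale used here to compare genes) in the control and 1704 to 1890 FPKM in the Apatinib group. Of the markers of other cell types, KRT8 (log2 fold change 0.71) and VWF (1.52) were higher and CDH5 (-1.22) was lower with Apatinib, and their part in the results was not tested. With control 1 and control 2 summed none of the 3 was called by edgeR, with 0.67 (FDR = 0.0886) for KRT8, 1.42 (FDR = 0.121) for VWF and -1.26 (FDR = 0.0719) for CDH5 on the log2 scale. The summed FPKM of these marker sets in control and Apatinib samples was 21.3 to 25.8 and 36.3 to 41.7 for epithelial, 1.77 to 1.98 and 0.996 to 1.53 for leukocyte, and 0.428 to 0.538 and 0.356 to 0.466 for endothelial markers. PTPRC was at 0 counts in all samples and CDH1 at 2 or fewer. CD14, also a leukocyte marker, had 40 to 107 counts.

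With Apatinib, MGLL, the gene of monoacylglycerol lipase, rose 1.89-fold, and it was the 1 member of 10 that was differentially expressed. With all samples included, no member was called as lower, though 4 had a negative log2 fold change (DGAT2, HILPDA, LIPE and G0S2). A gene was called when edgeR's quasi-likelihood test gave a false discovery rate (FDR) under 0.05 and the fold change exceeded 0.5 in either direction on the log2 scale, limits taken from the study's methods. By this rule 11.5% of all tested genes were called, 5.97% as higher and 5.48% as lower, so at these settings 1 of 10 members was no more than the background. The background rested on single samples. It was 4.73% without Apatinib 1, 1.65% without control 1, 300 of 16698 genes without control 2 and 1.75% with both controls summed, and it was 15.5% without control 3. In each of these fits the 1 member called was MGLL. Without Apatinib 2 there were 2 of 10 members called, MGLL and G0S2, against 8.91% of all genes. The median log2 fold change of the members was 0.08, against 0.0028 for all genes tested. Without overlap between the groups in CPM there was also 1 member (MGLL), and 33.2% of all tested genes met that condition. At an unadjusted p under 0.05 there was again 1 member, MGLL, against 30.6% of all tested genes. Levels of a single gene across samples are given in CPM, counts scaled to the library size by the TMM method of edgeR. The 95% interval of the log2 fold change included 0 in each of the 9 members not called. It lay within 0.5 of 0 on both sides in 4 of them, PLIN2, DGAT1, DGAT2 and ABHD5, and reached furthest for G0S2, from -0.81 to 0.24. In RNA from whole cultures, a change in the share of cells that carry a transcript and a change in the RNA per cell cannot be told apart.

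**Figure D1:**
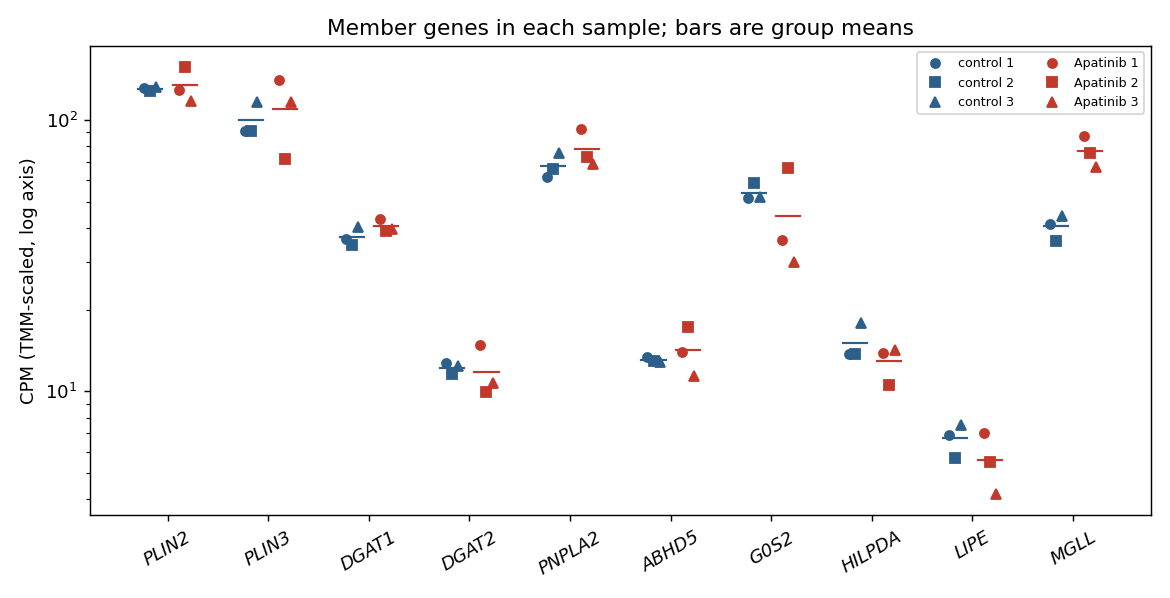
CPM of each member gene (log axis) in the 3 control samples (blue) and the 3 Apatinib samples (red), with a marker shape for each replicate number and a bar for the group mean. The Apatinib samples lie above all control samples for MGLL, at 67.0 to 87.7 against 35.8 to 44.3 CPM, and overlap them for the other 9 genes.

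**Figure D2:**
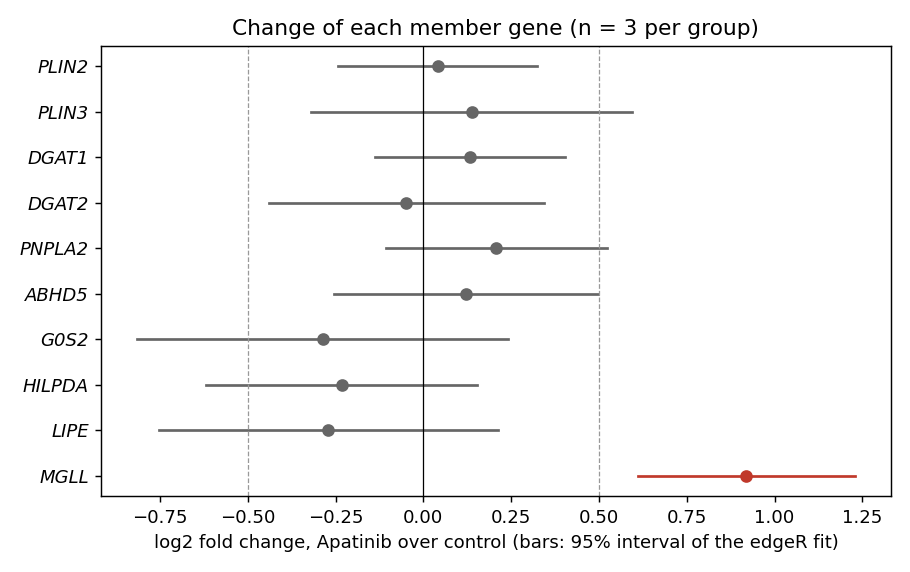
Log2 fold change of Apatinib over control for each member gene, with the 95% interval of the edgeR fit (n = 3 per group) and dashed lines at the limit of 0.5. The interval of MGLL, from 0.61 to 1.23, lies beyond the limit, and the intervals of the other 9 genes include 0.

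By mean FPKM, the droplet coat genes were the most abundant members in both groups. The range of PLIN3 overlapped that of G0S2 in the control, and in Apatinib 2 PLIN3 was below G0S2 and PNPLA2. PLIN2 (ENSG00000147872), which encodes the perilipin found on droplets of most cell types, had 2218, 2772 and 2053 counts in Apatinib samples 1 to 3 and 2281, 2321 and 2895 counts in control samples 1 to 3. In CPM the Apatinib samples had 129, 156 and 118 and the control samples 132, 128 and 133, so that the control values lay inside the range of the Apatinib values. The log2 fold change was 0.040 (95% interval -0.24 to 0.32, edgeR FDR = 0.867), and it was -0.079 without Apatinib 2. PLIN3 (ENSG00000105355), whose product moves from the cytosol to newly formed droplets, had 140, 72.0 and 117 CPM with Apatinib and 91.5, 91.2 and 117 CPM in the control. Apatinib 2 was the lowest of all 6 samples and Apatinib 1 the highest, and the groups overlapped. Its log2 fold change was 0.14 (95% interval -0.32 to 0.59, edgeR FDR = 0.698), with -0.075 without Apatinib 1 and 0.37 without Apatinib 2.

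Neither of the terminal enzymes of triglyceride synthesis was called. DGAT1 (ENSG00000185000), an enzyme of the endoplasmic reticulum, had 43.3, 39.0 and 39.7 CPM with Apatinib and 36.4, 34.6 and 40.2 CPM in the control. Control 3 lay within the range of the Apatinib samples, and the log2 fold change was 0.13 (95% interval -0.14 to 0.40, edgeR FDR = 0.502). DGAT2 (ENSG00000062282), an unrelated enzyme that catalyses the same step and also acts at droplets, had 14.8, 9.93 and 10.7 CPM with Apatinib and 12.7, 11.5 and 12.4 CPM in the control. The 3 control values lay between the highest and the 2 lower Apatinib values. The log2 fold change of DGAT2 was -0.048 (95% interval -0.44 to 0.34, edgeR FDR = 0.885), and its sign turned without Apatinib 2 (0.066) or Apatinib 3 (0.021).

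The first step of lipolysis was represented by the lipase, its coactivator and both of its small inhibitors, and none of these 4 genes was called. PNPLA2 (ENSG00000177666), which encodes ATGL, had 1591, 1290 and 1207 counts in the Apatinib samples, against 1066, 1198 and 1650 in the control samples. This corresponded to 92.5, 72.8 and 69.1 CPM against 61.5, 65.9 and 75.6 CPM, so that control 3 exceeded 2 of the 3 Apatinib samples. The log2 fold change was 0.21 (95% interval -0.11 to 0.52, edgeR FDR = 0.357). ABHD5 (ENSG00000011198), the coactivator of ATGL, had 14.0, 17.3 and 11.4 CPM with Apatinib, while the control samples lay between 12.9 and 13.3 CPM. Its log2 fold change was 0.12 (95% interval -0.25 to 0.50, edgeR FDR = 0.674), and -0.039 without Apatinib 2. HILPDA (ENSG00000135245), a hypoxia-inducible inhibitor of ATGL, had 13.8, 10.6 and 14.3 CPM with Apatinib and 13.7, 13.7 and 17.9 CPM in the control. The group ranges overlapped, with Apatinib 2 lowest and control 3 highest, and the log2 fold change was -0.23 (95% interval -0.62 to 0.15, edgeR FDR = 0.403).

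G0S2 (ENSG00000123689), the other inhibitor of ATGL, was the member whose result rested most on a single sample. The Apatinib samples had 619, 1183 and 522 counts, and the control samples 892, 1062 and 1135. In CPM, Apatinib 1 and Apatinib 3 were low at 36.0 and 29.9, Apatinib 2 was the highest of all samples at 66.8, and the control samples had 51.5, 58.4 and 52.0. The log2 fold change over all samples was -0.29 (standard error 0.241, 95% interval -0.81 to 0.24, edgeR FDR = 0.454). Without Apatinib 2 it was -0.71 with an edgeR FDR of 0.0144, which would be a call, and without Apatinib 3 it was -0.067 with an edgeR FDR of 0.868.

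The sequences before the RefSeq transcription starts (assembly GRCh38.p14) are shown for PNPLA2 and G0S2, the lipase and the inhibitor that varied most. The sequence of PLIN2, the most abundant member by mean FPKM, is also shown. Each covers the 250 bases before the start, 5′ to 3′ in the direction of the gene, for PLIN2 at chr9:19127493-19127742 on the minus strand, for PNPLA2 at chr11:818664-818913 on the plus strand and for G0S2 at chr1:209675162-209675411 on the plus strand. Capitals mark the letters of 7 short motifs that were searched on both strands, where the whole match lies before the start. A match of the second core at the end of the PLIN2 sequence crosses the start and is not in capitals. The cores of the hypoxia response element were searched as ACGTG, here called the first core, and as GCGTG, here called the second core. The E-box was searched as CACGTG, which overlaps the first core. The AP-1 site was searched as TGACTCA, and the half-site of nuclear receptors as AGGTCA. The TATA box was searched as TATAA, and the CCAAT box by the letters of its name.
PLIN2: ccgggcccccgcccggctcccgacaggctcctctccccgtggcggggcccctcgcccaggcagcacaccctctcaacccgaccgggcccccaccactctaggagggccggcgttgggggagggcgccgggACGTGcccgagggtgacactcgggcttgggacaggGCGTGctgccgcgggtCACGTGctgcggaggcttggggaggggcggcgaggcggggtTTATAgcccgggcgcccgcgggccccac
PNPLA2: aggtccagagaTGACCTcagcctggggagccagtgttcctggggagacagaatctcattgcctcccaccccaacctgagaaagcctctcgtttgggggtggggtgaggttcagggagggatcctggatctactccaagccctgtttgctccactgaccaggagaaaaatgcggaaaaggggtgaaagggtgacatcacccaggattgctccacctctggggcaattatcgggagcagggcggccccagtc
G0S2: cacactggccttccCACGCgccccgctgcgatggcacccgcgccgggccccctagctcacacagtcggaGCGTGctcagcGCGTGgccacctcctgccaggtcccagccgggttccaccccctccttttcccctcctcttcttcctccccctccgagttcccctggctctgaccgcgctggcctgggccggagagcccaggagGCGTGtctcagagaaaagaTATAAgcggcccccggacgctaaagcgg
The second core stood 4 times before the start of G0S2, which also held the TATA letters. The half-site was the 1 motif found for PNPLA2, and PLIN2 held both cores, the E-box and the TATA letters. Of the 35116 promoters in the table, counted over 250 bases before and 50 after each start, 21.4% held the first core and 36.5% the second, 7.26% the E-box, 13.8% the half-site and 20.4% the TATA letters. A match in letters is a description and not a binding site. In all, 6 members were matched in the table (PLIN2, PLIN3, PNPLA2, LIPE, G0S2 and ABHD5), and MGLL, DGAT1, DGAT2 and HILPDA were not. Among the 6, the second core was found in 4, the TATA letters and the CCAAT box (in 34.6% of all promoters) in 2 each, the first core, the E-box and the half-site in 1 each, and the AP-1 letters (4.95%) in none. LIPE had 2 starts in the table and ABHD5 had 3, and a match at any of them was counted. The shares of all promoters are per single start.

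Of the later steps of lipolysis, the last was called and the middle one was not. LIPE (ENSG00000079435), which encodes hormone-sensitive lipase, the diacylglycerol lipase of adipocytes, was the least abundant member. The Apatinib samples had 121, 97 and 73 counts of it and the control samples 120, 103 and 164, or 7.04, 5.48 and 4.18 CPM against 6.93, 5.66 and 7.51 CPM. The ranges overlapped, and the log2 fold change was -0.27 (95% interval -0.75 to 0.21, edgeR FDR = 0.442). MGLL (ENSG00000074416) encodes monoacylglycerol lipase, which releases the last fatty acid and also degrades the endocannabinoid 2-arachidonoylglycerol. MGLL received 1507, 1338 and 1170 counts in the Apatinib samples, against 719, 651 and 967 in the control samples. It was 87.7, 75.5 and 67.0 CPM in the Apatinib samples and 41.5, 35.8 and 44.3 CPM in the control samples, with every Apatinib sample above every control sample. The mean was 40.5 ± 4.33 CPM in the control and rose to 76.7 ± 10.4 CPM (SD, n = 3 each). On the log2 scale this was a rise of 0.92 (standard error 0.141, 95% interval 0.61 to 1.23, edgeR FDR = 0.00507). MGLL ranked 109 by p value among the 16290 genes tested.

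The call of MGLL was kept in each fit that left out 1 sample, with a log2 fold change of 0.82 to 1.01 and an edgeR FDR of 0.00189 to 0.0384, the highest without control 2. With control 1 and control 2 summed as 1 sample, its log2 fold change was 0.89 and its edgeR FDR 0.0356. In a stricter test, glmTreat of edgeR, whose null hypothesis is a log2 fold change of up to 0.5, the FDR of MGLL was 0.0955, and 74 of all genes passed. The deposited FPKM values also separated the groups, and the lowest Apatinib sample, at 11.2 FPKM, was 1.60 times the highest control sample, control 3.

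**Figure D3:**
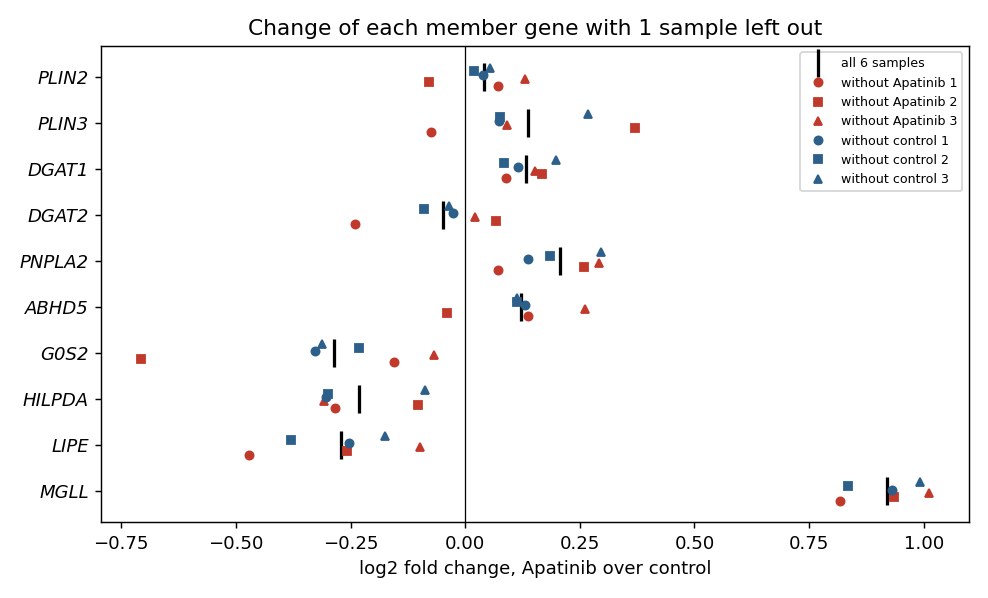
Log2 fold change of Apatinib over control for each member gene in the fit of all 6 samples (black bar) and in the fits that left out an Apatinib sample (red) or a control sample (blue). MGLL stays between 0.82 and 1.01, G0S2 moves from -0.29 to -0.71 without Apatinib 2, and PLIN2, PLIN3, DGAT2 and ABHD5 change sign in at least 1 fit.

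The spread among replicates was wider with Apatinib than in the control for 8 of the 10 members, and for 68.5% of all tested genes. It was widest for G0S2, with a coefficient of variation of 44.7% among the Apatinib samples and 7.14% among the control samples, where counting error alone gives about 3.59% and 3.12%. PLIN3 followed with 31.6% against 14.6%. The narrowest spread in the Apatinib group was that of DGAT1, at 5.62%, near its counting error of 3.75%. ABHD5 varied by 1.86% in the control, below its counting error of 6.33%, and by 20.8% with Apatinib. PLIN2 varied by 2.03% in the control, close to its counting error, and by 14.9% with Apatinib. Apatinib 2 was the highest of its group for PLIN2, ABHD5 and G0S2 and the lowest for PLIN3, DGAT1, DGAT2 and HILPDA, and Apatinib 3 was the lowest for PLIN2, PNPLA2, LIPE, MGLL, G0S2 and ABHD5. In the control, where control 1 and control 2 are close across all genes, control 3 was the highest sample for PLIN2, PLIN3, PNPLA2, LIPE, MGLL, DGAT1 and HILPDA.

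Per transcript length, the control cells held PLIN2 at 49.2 ± 1.21 FPKM, PLIN3 at 41.1 ± 5.26, G0S2 at 40.7 ± 2.24 and PNPLA2 at 33.6 ± 2.10 FPKM (SD, n = 3). The other members followed at lower levels, with DGAT1 at 13.8 ± 0.758, HILPDA at 12.4 ± 0.735, MGLL at 6.53 ± 0.771, ABHD5 at 5.58 ± 0.307, DGAT2 at 4.09 ± 0.373 and LIPE at 1.76 ± 0.0731 FPKM. In this order PLIN3 and G0S2, DGAT1 and HILPDA, and MGLL and ABHD5 overlapped in range. With Apatinib, MGLL stood at 12.5 ± 1.27 FPKM, above ABHD5 at 5.92 ± 1.22 FPKM with no overlap. HILPDA was at 10.4 ± 1.31 FPKM, and its highest sample and the lowest of MGLL were equal to 3 digits, at 11.2 FPKM. PLIN2 (51.7 ± 9.26 FPKM), PLIN3 (44.7 ± 12.9), PNPLA2 (41.0 ± 4.09) and G0S2 (33.7 ± 16.3) led again, each overlapping the next. MGLL made up 2.79% to 3.36% of the summed FPKM of the 10 members in the control samples and 5.41% to 6.10% in the Apatinib samples.

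The RNA levels of ATGL and its regulators were compared by ratios of FPKM values within each sample. The balance of the proteins was not measured in these data. The ratio of HILPDA to PNPLA2 was 0.247, 0.218 and 0.299 in the Apatinib samples, against 0.379, 0.360 and 0.366 in the control samples. Every Apatinib sample was lower, a log2 difference of -0.54 (p = 0.1 in an exact permutation test, two-sided, which is the lowest value 3 against 3 samples can reach, and 0.4 after Benjamini-Hochberg adjustment over 4 ratios). The ratio of G0S2 to PNPLA2 was 0.573, 1.29 and 0.618 in the Apatinib samples, against 1.25, 1.33 and 1.08 in the control samples. Apatinib 2 lay among the control samples (exact permutation p = 0.3, adjusted 0.4). The ratio of ABHD5 to PNPLA2 was 0.122, 0.179 and 0.133 against 0.179, 0.160 and 0.160 (exact permutation p = 0.4, adjusted 0.4). The ratio of DGAT2 to DGAT1 was 0.306, 0.231 and 0.234 against 0.318, 0.285 and 0.286 (exact permutation p = 0.3, adjusted 0.4). Both of these ratios also overlapped between the groups. No ratio could pass 0.05 with 3 samples in each group.

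**Figure D4:**
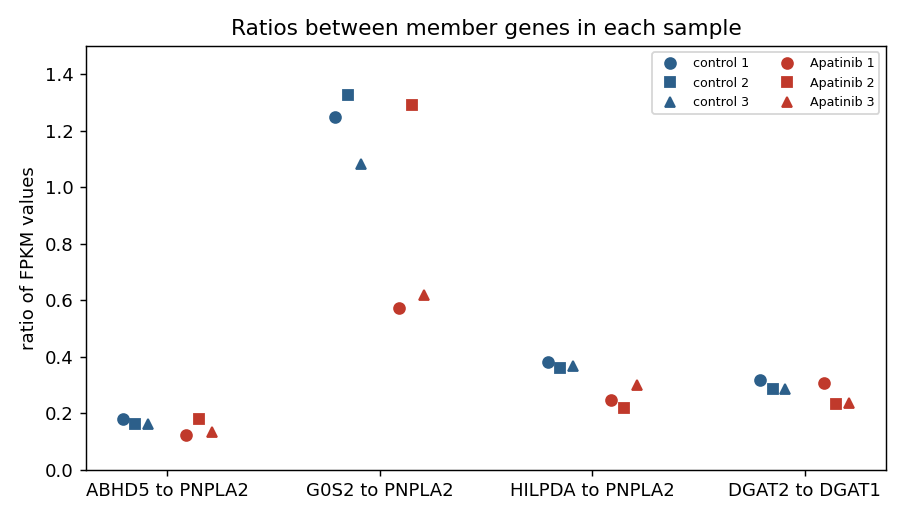
Ratios of FPKM values of ABHD5, G0S2 and HILPDA to PNPLA2 and of DGAT2 to DGAT1 in each control (blue) and Apatinib (red) sample. The ratio of HILPDA to PNPLA2 is lower in all 3 Apatinib samples, at 0.218 to 0.299 against 0.360 to 0.379, and the other ratios overlap.

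Other genes were placed on 8 lists, chosen with earlier results of these data known. There were 7 lists of fatty acid and lipid handling and 1 of hypoxia-inducible genes, to which HILPDA also belongs. The lists held 112 genes, of which 92 were tested. Of these, 9 rose and 9 fell with Apatinib, 19.6% against the background of 11.5%, and 6 of the 18 were on the list of hypoxia-inducible genes. The 7 lists of lipid handling alone had 12 called genes of 80 tested (15%), 8 higher and 4 lower. With control 1 and control 2 summed as 1 sample, 2 of the 18 kept their call, LIPC and LIPG, which was 2.15% of the list genes tested there against 1.75% of all genes. These 2 were also called in all 6 fits that left out 1 sample. PLIN5 lost its call in all 6 of these fits, SLC27A5, ANGPTL4 and EGLN3 in 5, CPT1C and RAB18 in 4, and the other called genes in 2 or 3. Both were secreted lipases of the list of other lipases and ester hydrolysis, where 2 genes rose, 1 fell and the median of the 14 tested genes was 0.15. LIPC (hepatic lipase) rose from 10.9, 9.62 and 11.7 to 30.8, 20.7 and 26.7 CPM, 1.27 on the log2 scale (standard error 0.173, edgeR FDR = 0.00358). LIPG (endothelial lipase) fell from 5.89, 5.83 and 6.41 to 2.73, 2.09 and 2.23 CPM, -1.36 on the log2 scale (standard error 0.204, edgeR FDR = 0.00485). In both genes the groups did not overlap. LPL (lipoprotein lipase), which takes fatty acids from circulating triglyceride, rose from 10.2 ± 1.46 to 18.3 ± 4.71 CPM (SD, n = 3 each, edgeR FDR = 0.0237). With the controls summed its edgeR FDR was 0.0807, at a log2 fold change of 0.89 against 0.84. On the same list ABHD12, a hydrolase that like monoacylglycerol lipase acts on monoacylglycerol, had 168 ± 16.8 CPM in the control and 185 ± 24.4 CPM with Apatinib (edgeR FDR = 0.508).

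Uptake and activation of fatty acids held 2 called genes of 12 tested, both higher, with a list median of 0.060. SLC27A1, a fatty acid transport protein, rose from 34.4 ± 1.53 to 51.7 ± 4.61 CPM (log2 fold change 0.59), and SLC27A5, a related acyl-CoA synthetase, from 1.67, 1.26 and 1.56 to 3.66, 2.65 and 2.40 CPM (0.95). In FPKM the groups of SLC27A5 overlapped, and with limma on log2(FPKM + 1) its difference was 0.43 (FDR = 0.303). DBI, which binds acyl-CoA, was the most abundant gene of the list that was not called, at 49.7 ± 4.85 FPKM in the control and 56.3 ± 12.6 FPKM with Apatinib. In glycerolipid synthesis, 1 of 13 tested genes rose and 1 fell, and the median was 0.042. They were 2 lysophosphatidate acyltransferase genes in opposite directions, AGPAT4 from 18.3, 16.3 and 16.4 to 22.9, 27.8 and 26.4 CPM (0.60) and AGPAT5 from 93.0 ± 6.84 to 60.2 ± 10.9 CPM (-0.63). AGPAT1, the most abundant gene of that list by FPKM, had a log2 fold change of -0.041.

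Among the other genes of the droplet coat and of droplet assembly, 2 of 11 tested genes rose and 1 fell, with a median of 0.068. LDAF1, which acts with seipin at sites of droplet formation, rose from 14.7 ± 2.54 to 23.5 ± 0.598 CPM (0.67). RAB18, a small GTPase found on droplets, fell from 35.0 ± 5.73 to 22.3 ± 3.06 CPM (-0.65). PLIN5, the perilipin of oxidative tissues, received 12, 22 and 16 counts in the Apatinib samples and 7, 3 and 8 in the control samples (edgeR FDR = 0.0425). AUP1 did not pass the test, with a log2 fold change of -0.0025. In fatty acid oxidation, 1 of 19 tested genes was called, with a median of 0.076. CPT1C, the brain form of carnitine palmitoyltransferase, rose from 4.07 ± 0.736 to 7.73 ± 1.99 CPM (0.92), and ACADVL, the most abundant gene of the list, differed by 0.19 on the log2 scale (edgeR FDR = 0.297). Of 2 tested genes of sterol esterification none was called by edgeR, with 0 at an unadjusted p under 0.05 and a median of -0.13, and SOAT1, which makes cholesteryl esters for droplets, had a log2 fold change of -0.17.

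HILPDA, itself hypoxia-inducible, was not called, and whether it differed from the other hypoxia-inducible genes was not tested. Of 12 such genes, 5 fell and 1 rose, and the median was -0.48. The genes that fell were CA9 (carbonic anhydrase IX, from 7.97, 7.20 and 8.98 to 5.06, 4.46 and 4.29 CPM), EGLN3 (a prolyl hydroxylase, from 80.8 ± 7.99 to 56.5 ± 1.99 CPM), BNIP3 (a mitophagy receptor, from 69.2 ± 1.39 to 46.6 ± 1.41 CPM), PDK1 (pyruvate dehydrogenase kinase, from 45.1 ± 1.97 to 27.7 ± 3.06 CPM) and PFKFB4 (a regulator of glycolysis, from 63.9 ± 6.50 to 35.8 ± 10.2 CPM). ADM (adrenomedullin) rose from 5.28 ± 0.671 to 8.90 ± 0.397 CPM, and NDRG1 differed by 0.035 on the log2 scale. With the controls summed all 6 calls were lost, at edgeR FDR values of 0.0591 for PDK1 to 0.102 for ADM, while the log2 fold changes were of similar size, such as -0.69 against -0.70 for PDK1, -0.88 against -0.84 for PFKFB4 and 0.70 against 0.75 for ADM. On the list of PPAR receptors and targets, ANGPTL4, an inhibitor of lipoprotein lipase, fell from 2.64 ± 0.336 to 1.28 ± 0.247 CPM (-1.04), with an FDR of 0.0716 in limma on log2(FPKM + 1). PPARG, the adipogenic receptor, was at 20.5 ± 1.21 FPKM in the control and 22.8 ± 3.75 FPKM with Apatinib (edgeR FDR = 0.597). That list held 1 called gene of 9 tested and a median of 0.11.

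**Figure D5:**
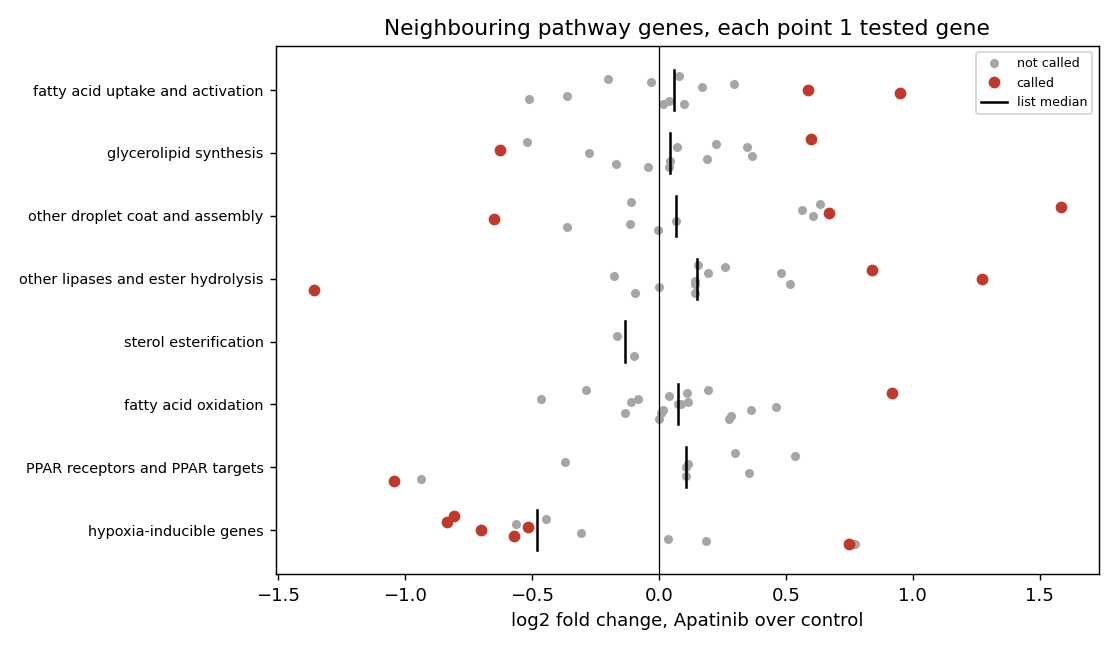
Log2 fold change of Apatinib over control for each tested gene (point) on 8 lists of neighbouring pathways, with called genes in red and the list median as a black bar. Called genes are on both sides of 0, and the hypoxia-inducible genes have the lowest median, -0.48.

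The 3 tested genes whose log2 CPM over the 6 samples was most like that of MGLL were C10orf54, VEGFC and P2RX4, with Pearson's r of 0.999, 0.999 and 0.997. Those most like PNPLA2, the member with the next smallest p value, were TAB1, ST3GAL2 and RNF167, each with r of 0.996 or 0.997. The points are 6 samples in 2 groups, so that a difference between the groups is part of each value. The genes were picked as the highest of all tested genes, so a high r can come from the choice alone. In GENCODE 29, exons of PLIN3, PNPLA2, LIPE, DGAT1, DGAT2 and ABHD5 overlap those of a gene on the opposite strand, exons of DGAT1 and HILPDA overlap those of a gene on the same strand, and no overlap was found for PLIN2, MGLL and G0S2. The sources used here do not say whether the counting used strand, so reads of such neighbours could be part of the counts. Among the called genes of the lists, SLC27A1, SLC27A5, CA9, PDK1 and ANGPTL4 have such a neighbour on the opposite strand, and PLIN5 and PFKFB4 on the same strand. The largest exon overlap is only 1 base for ANGPTL4, against 630 bases for SLC27A5.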

How the data were processed

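RNA of 6 samples of SW872 cells was sequenced, 3 with Apatinib and 3 untreated, and samples were grouped by their titles. The authors deposited a table of raw counts, whole numbers per gene, and FPKM values of each sample. The submitters' processing notes name CASAVA, STAR 2.7.1a and hg19. The counting program, the annotation and the program behind the FPKM are not given in the sources used here. In 1 file an extra column headed with a control's label was not used (1 column). Gene symbols are those of the table, except that LDAF1 is listed there as TMEM159, GPAT3 as AGPAT9 and GPAT4 as AGPAT6.

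Counts were filtered with filterByExpr and scaled by TMM (factors 0.952 to 1.03) in edgeR 4.0.16 (R 4.3.3), and the quasi-likelihood F test was adjusted by Benjamini-Hochberg over 16290 genes. CPM uses the TMM factors, and log2 CPM a prior count of 2. Standard errors and 95% intervals were derived from the F statistic. Replicate numbers were not used as pairs, since deviations of samples with the same number did not correlate. The members and lists were chosen with earlier results of these data known. Named genes are the members, the called genes of the lists, the most abundant uncalled gene of each list, and the 3 genes most like each of 2 members. Cell type markers come from fixed lists, and BSCL2, ETFB, CPT1B and ABHD6 were named after their values were seen. Alternatives were DESeq2 1.42.0, other scaling and filters, a replicate block, leaving out each sample, summed controls, glmTreat, and limma 3.58.1 on FPKM, as log2 values with a pseudocount of 1 or 0.1, for genes averaging above 0.5. The fit was tested on simulated counts drawn independently for each sample, a setting without the likeness of control 1 and control 2. Depth is the total count per sample. The intervals are for the difference between the groups, with a variance that edgeR moderates across all tested genes, and not for the spread within a group. The study's methods call the replicates biological, without naming their cultures. The endothelial list lacks 1 marker, which is not analysed here.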

Additional observations from a re-analysis of the deposited data

How the results depend on the processing

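MGLL was called as higher in every fit other than glmTreat, with a log2 fold change of 0.82 to 1.01, and 134 of 140 member values from other settings or left-out samples kept their direction and their side of the threshold. The number of members called was 1 to 2 across the fits that left out 1 sample (2 without Apatinib 2, where 1493 of all genes, 8.91%, were called) and 0 with glmTreat, where MGLL had an FDR of 0.0955. With 1 sample left out, the log2 fold change ranged from -0.079 to 0.13 for PLIN2, -0.075 to 0.37 for PLIN3, -0.24 to 0.066 for DGAT2 (0.021 without Apatinib 3), -0.71 to -0.067 for G0S2, -0.039 to 0.26 for ABHD5, 0.071 to 0.30 for PNPLA2, -0.47 to -0.099 for LIPE, -0.31 to -0.088 for HILPDA and 0.084 to 0.20 for DGAT1. The number of all genes called was 1866, and with 1 sample left out it ranged from 275 without control 1 and 300 without control 2 to 2594 without control 3, with 795 without Apatinib 1. It was 292 with controls 1 and 2 summed, 796 and 810 with limma on log2(FPKM + 1) and log2(FPKM + 0.1), and 74 with glmTreat. The number called on the lists was 18. With 1 sample left out it ranged from 2 without control 1 or control 2 to 19, with 9 without Apatinib 1. It was 20 with no filter on low counts or with FDR alone, 2 with controls summed, 10 with limma at either pseudocount and 2 with glmTreat. The cause was not tested. Replicate numbers were not shown to pair the samples, with correlations of deviations of -0.259, 0.0808 and -0.220. With the replicate number as a block, 2215 genes, 1 member and 19 pathway genes were called, and MGLL had a log2 fold change of 0.92. The 4 ratios kept their direction in CPM and with any sample left out. PLIN5 had few counts, between 3 and 22 per sample, and the part of depth in its calls was not tested.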

Other observations

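The deposited counts and FPKM values stood in very different ratios for some genes. CPM divided by FPKM, which approximates the transcript length in kilobases where both count the same fragments, was 1.23 to 6.15 for the 10 members, with a median of 2.53, and 3.35 at the median of all tested genes. It was under 0.5 for 2.80% of all tested genes and, on the pathway lists, for BSCL2 (0.254), ETFB (0.353) and CPT1B (0.0693), genes chosen after their values were seen. BSCL2, the gene of seipin, which shapes budding droplets, thus had a mean of 4.90 CPM beside 19.3 FPKM, and CPT1B, the muscle form of carnitine palmitoyltransferase, 0.398 CPM beside 5.75 FPKM. No member was under 0.5.

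MGLL was 9.28% to 11.1% of the summed FPKM of MGLL, ABHD6 and ABHD12, hydrolases that act on monoacylglycerol, in the control samples and 15.4% to 16.7% in the Apatinib samples. This set was chosen after the values of MGLL were seen.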
